A study of Mus musculus with 9 samples.

Results

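The genes described here are 10 mouse neutrophil genes, namely S100a8, S100a9, Csf3r, Cxcr2, Ltf, Ngp, Camp, Retnlg, Mmp8 and Ly6g. They were taken by name as neutrophil granule and receptor genes, and not by any measured level. All 10 were found, through the identifiers of GENCODE M21 (a gene annotation of the mouse genome), among the 49671 genes of each count table. RNA was sequenced in bulk from tumours and cultures of a mouse pancreatic cancer line that lacks CD49b (KPC49bKO, here KO) and of its KPCWT counterpart (here WT). CD49b is integrin alpha 2, a collagen receptor chain encoded by Itga2. The libraries were 2 of KO tumours, 3 of WT tumours, 2 of KO cultures and 2 of WT cultures. The tumours had grown under the flank skin of syngeneic C57BL/6 mice and were taken apart with enzymes. No sorting step is described, so these libraries can hold host cells beside cancer cells. The cultures were grown in DMEM with fetal bovine serum and harvested before confluence, and they hold the cancer cells without a host. Each genotype is represented by 1 line, so KO and WT differ by everything that sets these lines apart. Neither age nor sex of the mice is stated. The libraries are called biological replicates, and whether each tumour came from a mouse of its own is not stated, so p-values measure the spread between these samples. WT tumours 1 and 2 were closer to each other than any other pair of replicates. The mean chi-square per gene between their counts was 6.55, against 25.2 to 43.9 for the other pairs. Values given without WT tumour 3 have only this close pair as WT tumours, and whether the pair is independent cannot be told. KO tumours are called 1 and 3 here, after the table's column names.

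Neutrophils are short-lived phagocytes made in the bone marrow, where the growth factor G-CSF, acting on its receptor Csf3r, drives their production. Granule proteins are made in waves during maturation in the marrow: the azurophil proteins come first, the specific granule proteins (lactoferrin, cathelicidin, neutrophil collagenase) next. Their transcripts are largely switched off before the cells enter the blood. Transcripts of surface receptors such as Csf3r and Cxcr2, and of the calcium-binding proteins S100a8 and S100a9, remain in circulating and tissue neutrophils. In pancreatic cancer, ligands of Cxcr2 draw neutrophils from the blood into the tumour. Transcription factors of the C/EBP family and PU.1 (the product of Spi1) are known regulators of granulocyte genes.

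Promoter sequence is shown for S100a8, S100a9 and Cxcr2, whose levels in the tumours were alike in being far higher in 1 library, and for Ltf, whose pattern was another. The sequences are RefSeq's for GRCm38.p6 and cover the bases ahead of the annotated exons, written 5′ to 3′ on the gene's strand. They lie at chr3:90668821-90668977 (S100a8, plus strand), chr3:90695722-90695971 (S100a9, minus strand), chr1:74153744-74153988 (Cxcr2, plus strand) and chr9:111019042-111019270 (Ltf, plus strand). Capitals mark matches, on either strand, to the C/EBP letters TTNNGCAA or to the PU.1 core GAGGAA, which reads TTCCTC on the other strand.
S100a8: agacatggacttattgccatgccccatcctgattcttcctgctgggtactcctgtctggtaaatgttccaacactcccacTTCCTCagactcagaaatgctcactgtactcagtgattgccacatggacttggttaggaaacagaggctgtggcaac
S100a9: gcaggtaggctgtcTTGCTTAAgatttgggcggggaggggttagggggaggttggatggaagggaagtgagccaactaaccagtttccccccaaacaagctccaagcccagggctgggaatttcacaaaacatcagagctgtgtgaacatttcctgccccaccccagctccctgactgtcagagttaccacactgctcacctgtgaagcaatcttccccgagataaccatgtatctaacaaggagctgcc
Cxcr2: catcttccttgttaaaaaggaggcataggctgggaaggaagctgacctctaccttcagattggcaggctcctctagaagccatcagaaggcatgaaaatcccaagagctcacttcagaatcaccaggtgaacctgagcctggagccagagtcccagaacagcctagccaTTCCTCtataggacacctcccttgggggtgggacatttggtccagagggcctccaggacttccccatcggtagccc
Ltf: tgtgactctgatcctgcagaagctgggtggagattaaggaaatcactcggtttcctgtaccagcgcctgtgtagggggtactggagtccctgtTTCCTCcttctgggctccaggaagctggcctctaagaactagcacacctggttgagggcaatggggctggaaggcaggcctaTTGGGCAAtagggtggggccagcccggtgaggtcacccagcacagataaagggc

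Over the 300 bases that RefSeq's table gives around each start (250 before it and 50 after), 6 of the 10 genes held the C/EBP letters, against 10.8% of 32851 promoters. These genes were S100a9, Ltf, Ngp, Retnlg, Mmp8 and Ly6g. The PU.1 core was held by 6 of the 10 as well (S100a8, Csf3r, Cxcr2, Ltf, Mmp8 and Ly6g), against 28.3% of promoters. S100a8, S100a9 and Cxcr2 thus shared no match that all of them held, while Ltf held both. A match is a description of letters and does not show that a factor binds there.

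Library totals were 16032912 to 21247023 counts, and levels are given as CPM, which scales each count by its library's total. Where a count is 0, the limit is 3 counts, or 0.141 to 0.187 CPM depending on the library. Intervals and limits cover counting error only. Itga2 (chromosome 13, 114833081 to 114932100, minus strand, GRCm38) checked the labels: it had 47.6 and 73.0 CPM in KO tumours, against 142, 168 and 164 CPM in WT tumours. Every KO tumour lay below every WT tumour, although transcript remained. WT tumour 3 stood apart from the other tumours in its host genes. A list of 9 fibroblast and endothelial markers summed to 314 and 549 CPM in KO tumours, against 1374, 925 and 2651 CPM in WT tumours, with the last value in WT tumour 3. A list of 8 T and NK cell markers summed to 32.3 and 76.6 CPM in KO tumours, against 25.2, 24.6 and 6.49 CPM in WT tumours, the lowest again in WT tumour 3. The main values of the 10 genes are therefore given with and without that library. In a bulk sample, fewer neutrophils and less of a transcript in each neutrophil cannot be told apart.

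The clearest pattern among the 10 genes was 1 tumour. WT tumour 3 had the highest level of 8 of them among the 5 tumours, while the highest Ngp was in KO tumour 1 and the highest Camp in WT tumour 2. For Mmp8 and Ly6g that place rested on 8 and 9 counts, and Ltf was 1.64 times the next tumour. WT tumour 3 also had the most genes with a count, at 24685, against 22017 to 23730 in the other tumours. The share of all genes that were highest in WT tumour 3 was not counted. Between the KO tumours and the other WT tumours, the receptors and S100 genes overlapped. Ltf, the lactoferrin gene, was the exception: it was far lower in every KO tumour than in every WT tumour, and cultured cancer cells without any host expressed it.

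**Figure D1:**
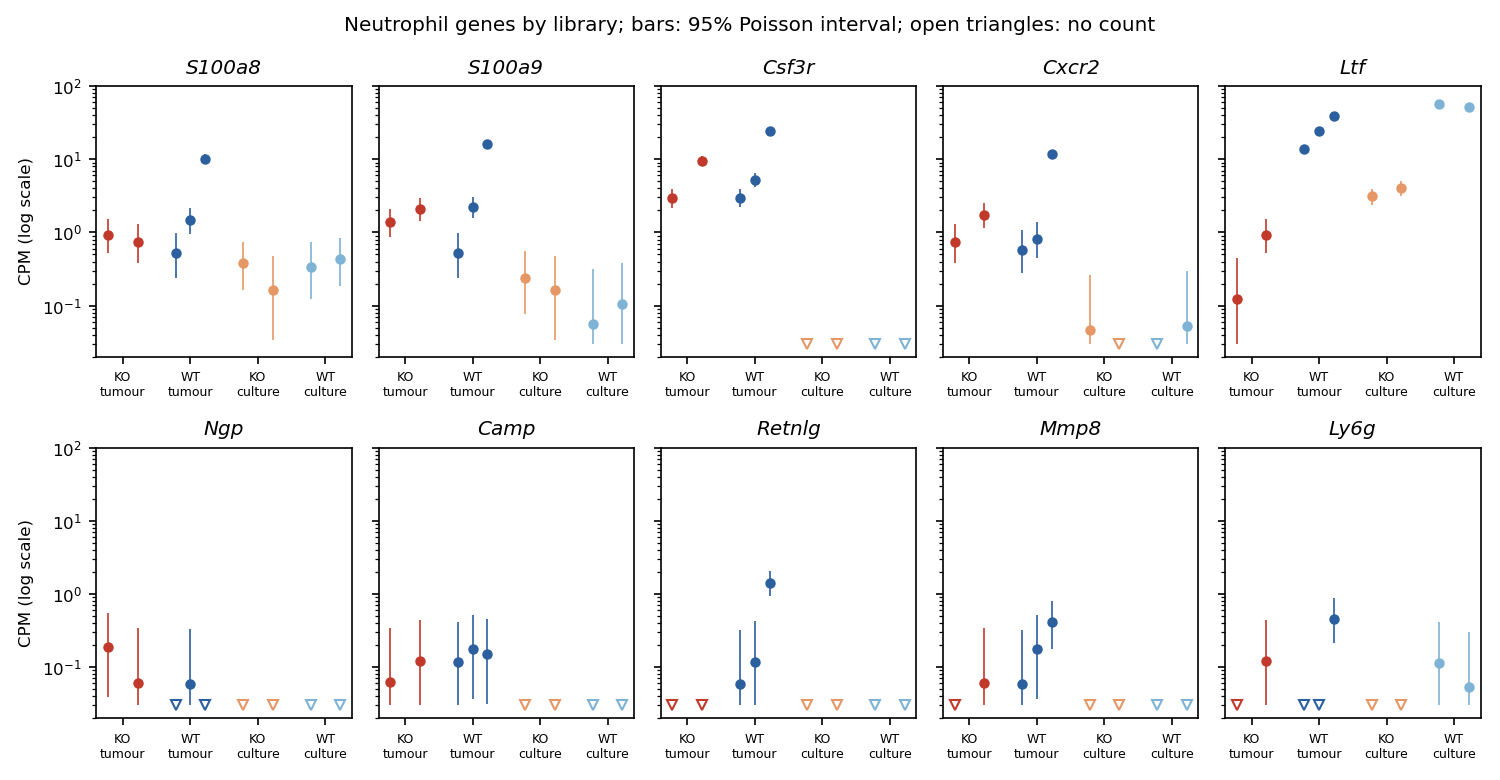
Level of each of the 10 genes in each library (CPM, log axis), with KO tumours, WT tumours, KO cultures and WT cultures from left to right and points in the order of the library numbers. Bars are exact 95% Poisson intervals of the count, drawn down to 0.03 CPM at the lowest, and open triangles at the foot are libraries with no count. WT tumour 3 is the highest tumour for 8 genes, Ltf is high in WT cultures, and Csf3r has no count in any culture.

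Csf3r (ENSMUSG00000028859, chromosome 4, 126024550 to 126044440, plus strand) encodes the G-CSF receptor and was counted in every tumour. It had 47 and 156 counts in KO tumours, or 2.93 and 9.60 CPM, against 51, 88 and 478 counts in WT tumours, or 2.96, 5.18 and 24.4 CPM. The groups overlapped, since KO tumour 1 and WT tumour 1 were nearly level and KO tumour 3 exceeded WT tumours 1 and 2. No culture library had a single Csf3r count, so the cancer cells of either line gave no detectable Csf3r. Averages were 6.26 ± 4.71 CPM in KO tumours and 10.9 ± 11.8 CPM in WT tumours (SD, n = 2 and 3). The log2 fold change of -0.73 (SE 0.92, 95% interval -2.92 to 1.47) did not pass edgeR's quasi-likelihood test (adjusted p = 0.609). With WT tumour 3 left out the log2 fold change was 0.66 (adjusted p = 0.496), so the direction rested on that library.

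Cxcr2 (ENSMUSG00000026180, chromosome 1, 74153989 to 74161246, plus strand) is the receptor for the chemokines Cxcl1, Cxcl2 and Cxcl5, through which neutrophils enter tissue. It had 12 and 28 counts in KO tumours (0.749 and 1.72 CPM), against 10, 14 and 229 counts in WT tumours (0.579, 0.825 and 11.7 CPM). WT tumour 3 held nearly all of the WT counts, at 6.80 times the next tumour, which was KO tumour 3, and at 16.7 times the mean of WT tumours 1 and 2. In culture, Cxcr2 had 1 and 0 counts in KO and 0 and 1 in WT. The log2 fold change between KO and WT tumours was -1.74 (SE 1.32, edgeR adjusted p = 0.390), with an interval of -4.89 to 1.41. Without WT tumour 3 it was 0.86 (SE 0.55, adjusted p = 0.327), with 1 KO tumour within the range of WT tumours 1 and 2 and 1 above it.

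S100a8 (ENSMUSG00000056054, chromosome 3, 90668978 to 90670035, plus strand) and S100a9 (ENSMUSG00000056071, chromosome 3, 90692632 to 90695721, minus strand) are near neighbours. Their products pair to form calprotectin, an abundant cytosolic protein of neutrophils and monocytes that binds calcium and zinc. S100a8 had 15 and 12 counts in KO tumours (0.936 and 0.738 CPM), against 9, 25 and 199 counts in WT tumours (0.521, 1.47 and 10.2 CPM). S100a9 had 22 and 34 counts in KO tumours (1.37 and 2.09 CPM), against 9, 38 and 319 counts in WT tumours (0.521, 2.24 and 16.3 CPM). For both genes the KO tumours lay between WT tumours 1 and 2, and WT tumour 3 was 6.91 and 7.29 times the next tumour. Per kilobase of exon, S100a9 was the highest of the 10 genes in WT tumours, at a mean of 12.2 CPM per kb, followed by Ltf at 7.42, S100a8 at 5.84, Csf3r at 3.01 and Cxcr2 at 1.43 CPM per kb. That order rested on WT tumour 3: over WT tumours 1 and 2 Ltf averaged 5.44 CPM per kb and S100a9 2.64 CPM per kb, and Ltf was the higher in each of them. The spread of the WT tumours exceeds the gaps in that order, as the S100a9 mean of 6.36 CPM had an SD of 8.66 CPM.

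Neither S100 gene passed the test between KO and WT tumours. The log2 fold change was -2.17 for S100a8 (SE 1.22, 95% interval -5.07 to 0.73, edgeR adjusted p = 0.25) and -1.78 for S100a9 (SE 1.26, interval -4.79 to 1.23, adjusted p = 0.356). Leaving out WT tumour 3 gave -0.19 (adjusted p = 0.857) and 0.38 (adjusted p = 0.749). Both genes also gave a few counts in culture. S100a8 had 8 and 3 counts in KO cultures, against 6 and 8 in WT cultures, and S100a9 had 5 and 3 counts in KO cultures, against 1 and 2 in WT cultures. S100a8 in WT tumour 1, at 0.521 CPM, was thus close to the 0.428 CPM of WT culture 2.

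The specific granule genes other than Ltf were barely counted in any tumour. Ngp (ENSMUSG00000032484, chromosome 9, 110419747 to 110423012, plus strand), a protein of neutrophil granules, had 3 and 1 counts in KO tumours, against 0, 1 and 0 in WT tumours. Camp (ENSMUSG00000038357, chromosome 9, 109847379 to 109849617, minus strand), which encodes the antimicrobial peptide cathelicidin, had 1 and 2 counts in KO tumours, against 2, 3 and 3 in WT tumours. Mmp8 (ENSMUSG00000005800, chromosome 9, 7558456 to 7568485, plus strand), the neutrophil collagenase, had 0 and 1 counts in KO tumours, against 1, 3 and 8 in WT tumours. None of these genes had a count in culture, and none was counted enough to enter the test. The ratio of KO over WT tumours in pooled CPM was 6.67 for Ngp (95% counting interval 0.660 to 328), 0.625 for Camp (0.107 to 2.60) and 0.139 for Mmp8 (0.00325 to 0.938). The Mmp8 interval lies below 1 by counting error, but without WT tumour 3 it ran from 0.00538 to 2.68.

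Retnlg (ENSMUSG00000022651, chromosome 16, 48872621 to 48874496, plus strand) encodes a secreted resistin-like protein of mouse neutrophils. It had no count in either KO tumour, against 1, 2 and 28 counts in WT tumours (0.0579, 0.118 and 1.43 CPM). Taking 3 counts over the KO group as the limit, Retnlg was at least 6.20-fold lower in KO than in WT tumours. That bound came from WT tumour 3, at 12.2 times the next tumour, and without it both groups were at or under the limit and no fold can be given. With no filter on low counts its adjusted p was 0.0656 by edgeR. Ly6g (ENSMUSG00000022582, chromosome 15, 75155240 to 75159126, plus strand), the surface antigen by which mouse neutrophils are sorted, had 0 and 2 counts in KO tumours, against 0, 0 and 9 in WT tumours. It also had 2 and 1 counts in WT cultures, which hold no host cells, so the cultures reached the 2 counts of KO tumour 3 but not the 9 of WT tumour 3.

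Ltf (ENSMUSG00000032496, chromosome 9, 111019271 to 111042767, plus strand) encodes lactoferrin, the iron-binding protein of specific granules, which glandular epithelia also secrete. It had 2 and 15 counts in KO tumours (0.125 and 0.923 CPM), against 235, 406 and 769 counts in WT tumours (13.6, 23.9 and 39.3 CPM). The groups stood far apart, and Ltf was the one gene of the 10 with counts in all 5 tumours whose KO tumours lay below every WT tumour. Averages were 0.524 ± 0.564 CPM in KO tumours and 25.6 ± 12.9 CPM in WT tumours (SD, n = 2 and 3). Ltf fell by 5.51 on the log2 scale in KO tumours (SE 0.76, 95% interval -7.32 to -3.70, edgeR adjusted p = 0.00623). The size depended on the KO tumours: the log2 fold change was -4.74 without KO tumour 1 and -7.44 without KO tumour 3. Leaving out WT tumour 3 gave -5.10 (adjusted p = 0.0171).

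Cultured cancer cells, with no host, expressed Ltf. It had 66 and 74 counts in KO cultures (3.11 and 4.06 CPM), against 1021 and 977 counts in WT cultures (57.6 and 52.2 CPM). The WT cultures stood above all 5 tumours, and the KO cultures above both KO tumours. Ltf fell by 3.92 in KO cultures relative to WT cultures (SE 0.22, edgeR adjusted p = 1.96e-07). In culture 25.5% of 13573 genes tested passed the threshold (adjusted p under 0.05), and 16.2% were lower in KO. The test of whether the KO difference was larger in tumours than in culture gave -1.61 for Ltf (SE 0.80, adjusted p = 0.283), with an interval of -3.37 to 0.14. Across all genes 5.69% of 16793 passed that test. It can be given for S100a8 (-1.74, adjusted p = 0.631) and S100a9 (-3.06, adjusted p = 0.506) too, with only 3 S100a9 counts in WT cultures. Without WT tumour 3 the S100a9 value was -0.86 (adjusted p = 0.763) and the S100a8 value 0.28 (adjusted p = 0.926). The Ltf value ran from -0.83 without KO tumour 1 to -3.56 without KO tumour 3. With no filter the difference passed for Ltf (adjusted p = 0.00324) and S100a9 (adjusted p = 0.0407), at nearly the same log2 values.

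In all, 5 of the 10 genes had enough counts to be tested between KO and WT tumours, and 1 of the 5, Ltf, passed. The background was 19.7% of 16257 genes tested, with 8.78% higher and 10.9% lower in KO. The KO tumours lay below every WT tumour for 1 of the 5, against 32.1% of all genes tested. All 5 log2 fold changes were below 0, with a median of -1.78, beside a median of -0.01 over all genes. Without WT tumour 3 the median of the 5 was 0.38, again with 1 of 5 called, beside 17.2% of 15849 genes. These values describe the 5 genes that the filter kept, and say nothing of the other 5.

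**Figure D2:**
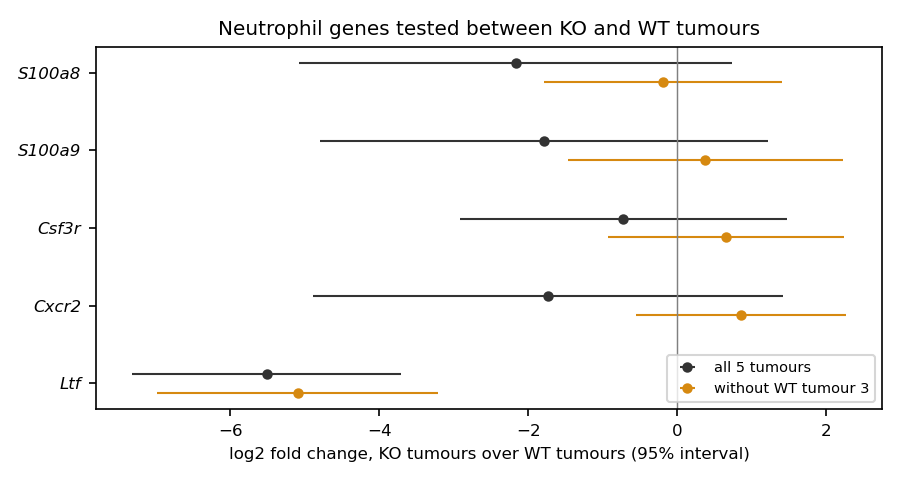
Log2 fold change of KO over WT tumours for the 5 genes that could be tested, with 95% intervals, from all 5 tumours (dark) and without WT tumour 3 (orange). S100a9, Csf3r and Cxcr2 lie below 0 with all tumours and above 0 without WT tumour 3, at intervals that span 0, and Ltf stays near -5.51 and -5.10.

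The sum of the 9 genes other than Ltf was 6.24 and 14.5 CPM in KO tumours, against 4.81, 10.2 and 65.1 CPM in WT tumours. The summed level of leukocyte genes spread less between the tumours. A list of 8 genes of leukocytes in general, among them Ptprc (the surface phosphatase CD45) and Itgam (integrin alpha M of myeloid cells), summed to 138 and 324 CPM in KO tumours, against 155, 158 and 234 CPM in WT tumours. Itgam alone spread more, with 1.75 and 6.09 CPM in KO tumours, against 4.46, 5.83 and 14.2 CPM in WT tumours. All 8 missed the threshold, with a median log2 fold change of 0.37, and Ptprc came nearest (0.85, edgeR adjusted p = 0.0535). Per 100 CPM of Ptprc, the 9 genes stood at 17.2 and 20.3 CPM in KO tumours, against 16.2, 34.7 and 186 CPM in WT tumours. Dividing by leukocyte content thus left WT tumour 3 apart and the other 4 tumours within 16.2 to 34.7. Ptprc itself was read in culture, at 7.20 and 8.0 CPM in KO and 2.20 and 2.51 CPM in WT, so part of the divisor need not be host RNA. Csf3r per 100 CPM of Itgam, a gene with no count in culture, was 168 and 158 CPM in KO tumours, against 66.2, 88.9 and 173 CPM in WT tumours, so that by this divisor WT tumour 3 lay beside the KO tumours.

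**Figure D3:**
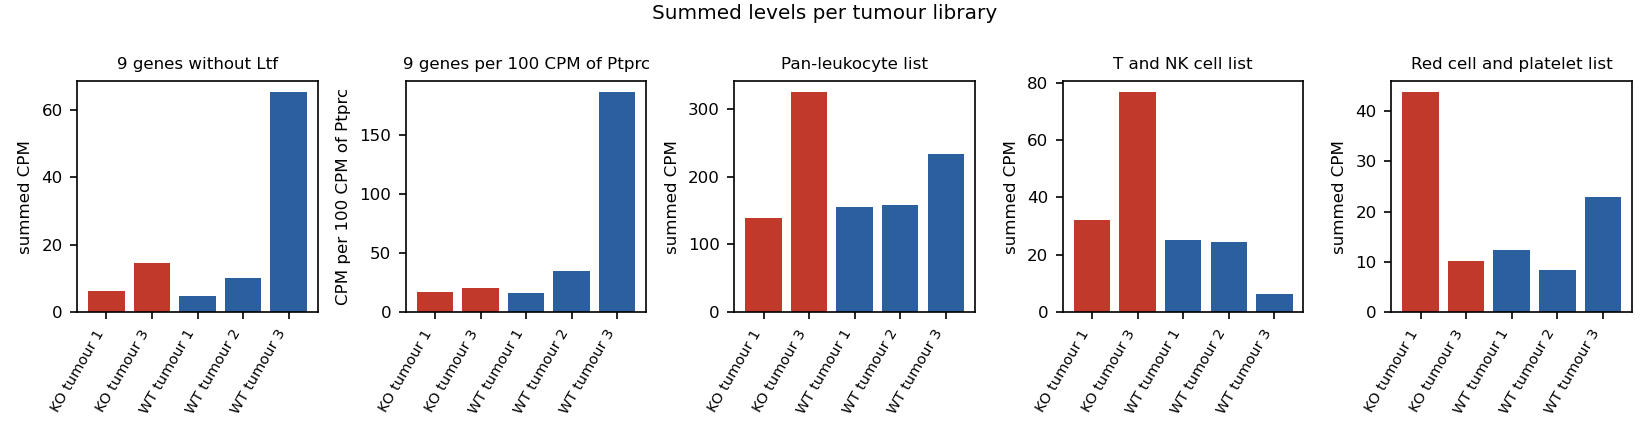
Summed CPM in each tumour library (KO tumours left, WT tumours right) of the 9 neutrophil genes without Ltf, of the same genes per 100 CPM of Ptprc, and of 3 marker lists. The 9 genes reach 65.1 CPM in WT tumour 3 and at most 14.5 CPM elsewhere, while the leukocyte list is highest in KO tumour 3 and the T and NK cell list lowest in WT tumour 3.

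Blood in a sample would bring neutrophil transcripts along, so red cell and platelet genes were set beside the set. That list of 7 summed to 43.7 and 10.3 CPM in KO tumours, against 12.5, 8.48 and 22.9 CPM in WT tumours, and all 7 missed the threshold. Its highest value was in KO tumour 1, where the 9 neutrophil genes summed to 6.24 CPM. In culture the red cell and platelet list summed to 1.51 and 1.48 CPM in KO, against 7.44 and 7.32 CPM in WT. Its sum in tumours thus need not be blood alone, and the part from cancer cells may differ between the lines. Monocytes and macrophages share S100a8, S100a9 and Csf3r at lower levels. Their list of 12 summed to 398 and 597 CPM in KO tumours, against 480, 566 and 602 CPM in WT tumours, and the 11 that could be tested missed the threshold, with a median of 0.29. In culture that list summed to 528 and 536.5 CPM in KO, against 481 and 498 CPM in WT. Its sum in tumours thus need not be host RNA alone. Cornified epithelium can express S100a8 and S100a9. Keratinocyte genes summed to 307 and 436 CPM in KO tumours, against 304, 254.6 and 239 CPM in WT tumours, with Flg and Sprr3 at 0 in all 5 tumours. Their sums in culture were 633 and 427 CPM in KO, against 725 and 694 CPM in WT. The list of 9 eosinophil, mast cell and basophil genes summed to 26.9 and 20.4 CPM in KO tumours, against 38.5, 34.4 and 37.7 CPM in WT tumours, with Epx and Prg2 at 0 in all 5. The same genes summed to 1.98 and 1.59 CPM in KO cultures, against 30.2 and 39.6 CPM in WT cultures. Of the 4 that could be tested, Mcpt8, a basophil protease, fell in KO tumours (by 2.64, adjusted p = 0.0226) and in KO cultures (by 4.46, adjusted p = 3.79e-07). Its call in tumours was lost without WT tumour 3 (adjusted p = 0.0613). Mcpt4 also passed as lower in KO cultures than in WT cultures (log2 fold change -2.29), where 16.2% of genes tested were lower. Both genes were thus read in cultures that hold no host. Siglecf, Ear2 and Mcpt4 did not pass between KO and WT tumours, and passed as higher in tumours than in cultures of both lines. The part of these cells in the neutrophil values was not tested.

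Each line's tumours were also set against its cultures, which hold no host cells. In WT tumours 4 of the 5 tested genes passed as higher than in WT cultures (S100a8, S100a9, Csf3r and Cxcr2) and Ltf passed as lower. Only Ltf was counted enough in culture to be tested there. The other 4 entered this fit through their tumour counts, so how many were higher in tumours was partly set by the filter. The background was large, with 36.1% of 16793 genes higher and 29.6% lower in WT tumours than in WT cultures. Every WT tumour lay above every WT culture for the same 4 genes, against 58.5% of all genes. In KO tumours 1 of the 5, Csf3r, passed as higher than in KO cultures and Ltf passed as lower, beside 32.9% of genes higher and 26.4% lower. That count changed with WT tumour 3, a library of the other line in the same fit. When it was left out, S100a9, Csf3r and Cxcr2 passed as higher in KO tumours over KO cultures, beside 33.6% of 16508 genes. The same 3 genes then passed in WT tumours over WT cultures, beside 34.8% of genes. Every KO tumour lay above every KO culture for the same 4 genes, against 56.5% of all genes. The labels give 1 batch to all cultures and another to all tumours, so setting and batch cannot be told apart.

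Csf3r stood at least 82.7-fold higher in KO tumours than in KO cultures (edgeR adjusted p = 0.00382) and at least 139-fold higher in WT tumours than in WT cultures (adjusted p = 0.00168). The second bound was 49.3-fold without WT tumour 3 (adjusted p = 0.000642). Cxcr2 was 48.9 times as high in pooled CPM in KO tumours as in KO cultures (counting interval 8.29 to 1980, edgeR adjusted p = 0.0598), resting on 1 count in culture. The KO call of Cxcr2 was made when any of the WT tumours 1, 2 and 3 was left out (adjusted p = 0.0271, 0.0357 and 0.00231) and with library totals (0.0450). In WT tumours Cxcr2 was 171 times the WT cultures (interval 30.5 to 6795, adjusted p = 0.00880), and 25.5 times without WT tumour 3 (adjusted p = 0.0103).

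The S100 genes had counts in every culture library. S100a9 was 8.56 times as high in KO tumours as in KO cultures (counting interval 4.06 to 20.8) without passing the test (adjusted p = 0.124). It passed without WT tumour 3 (adjusted p = 0.0131) and without WT tumour 1 (adjusted p = 0.0339). It was 82.6 times as high in WT tumours as in WT cultures (interval 28.1 to 403, adjusted p = 0.00641), and 16.7 times without WT tumour 3 (adjusted p = 0.00715). S100a8 had a log2 fold change of 1.17 in KO tumours over KO cultures (SE 1.27, adjusted p = 0.442). In WT tumours it rose by 2.9 over WT cultures (SE 1.09, adjusted p = 0.0349), and without WT tumour 3 the log2 fold change was 0.90 (adjusted p = 0.259), which ended the call. The WT calls of S100a8, S100a9 and Cxcr2 over culture were also lost with limma-voom and without either WT culture (adjusted p 0.0502 to 0.205). In KO tumours over KO cultures, S100a9 and Cxcr2 passed with DESeq2 (adjusted p = 0.0333 and 0.00932).

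Ltf fell in tumours of each line relative to its culture, by 3.19 in KO (SE 0.67, adjusted p = 0.00198) and by 1.57 in WT (SE 0.37, adjusted p = 0.00354). Without KO tumour 3 the KO value was -5.15 and without KO tumour 1 it was -2.41, all calls remaining. The median gene rose by 0.17 in each line's tumours over its cultures. Scaling by library totals in place of TMM moved that median to 0.60 in KO and 0.64 in WT, and the share of called genes that were higher to 74.4% in KO, against 55.5% with TMM, and to 72.7% in WT, against 54.9%. Under that scaling Ltf still fell, by 2.75 in KO and by 1.10 in WT. Of the remaining genes, Retnlg was at least 7.0-fold higher in WT tumours than in WT cultures, a bound set by WT tumour 3, and Ngp, Camp, Mmp8 and Ly6g stayed at 12 counts or fewer summed over any group.

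Other genes of neutrophil biology were read from lists by role. The azurophil granule genes, which mark the earliest granule stage, were counted little, and none of the 5 could be tested. Elane (neutrophil elastase) and Ms4a3 (a progenitor marker) had no count in any library, and Mpo (myeloperoxidase) had 1 count, in WT tumour 3. Ctsg had 1 count in WT tumour 1 and 1 in WT culture 2. Prtn3 had no count in either KO tumour, against 4, 9 and 17 counts in WT tumours. In culture Prtn3 had 4 and 2 counts in KO, against 3 and 5 in WT. In KO tumours 10.9% of 16257 genes tested fell, which is the share to set beside each of these lists. Of 12 other granule products 10 could be tested, of which 5 fell in KO tumours and 5 did not pass, with a median log2 fold change of -1.35. Those that fell were Lcn2, Mmp9, Padi4, Arg1 and Cd63. Several of these are also made by epithelium or macrophages, so they do not mark neutrophils alone.

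Padi4, the histone-citrullinating enzyme of neutrophil extracellular traps, had 0.25 and 0.185 CPM in KO tumours, against 4.46, 5.07 and 5.42 CPM in WT tumours. It fell by 4.39 (SE 0.42, edgeR adjusted p = 0.00224). Its WT tumours were nearly level, so Padi4 did not follow WT tumour 3 as S100a8, S100a9 and Cxcr2 did. Mmp9, the gelatinase B of late granules and macrophages, had 1.56 and 5.41 CPM in KO tumours, against 34.7, 42.8 and 37.1 CPM in WT tumours, and fell by 3.38 (SE 0.45, adjusted p = 0.00547). Both genes had at most 2 counts in any culture. Lcn2, the siderophore-binding lipocalin of granules and epithelium, had 0.936 and 0.923 CPM in KO tumours, against 6.89, 29.6 and 53.0 CPM in WT tumours. In culture it went the other way, at 30.7 and 23.5 CPM in KO and 17.8 and 13.6 CPM in WT (log2 fold change 0.81, edgeR adjusted p = 0.00883). Cd63, a tetraspanin of granules and lysosomes, fell in KO in tumours (by 1.26, adjusted p = 0.0103) and in culture (by 1.32, adjusted p = 0.000495).

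Of 12 other receptors 9 could be tested, of which 2 fell in KO tumours (Clec4d and Clec4e, C-type lectins of myeloid cells) and 7 did not pass, with a median of -1.42. Over all genes tested 10.9% fell. Clec4e had 0.312 and 0.369 CPM in KO tumours, against 1.68, 2.53 and 3.78 CPM in WT tumours, and fell by 2.86 (adjusted p = 0.0149). Trem1, an activating receptor of neutrophils and monocytes, had 0.374 and 1.78 CPM in KO tumours, against 1.22, 1.94 and 7.46 CPM in WT tumours, which overlap (log2 fold change -1.64, adjusted p = 0.260, and -0.51 without WT tumour 3). Il1r2, the decoy receptor for interleukin-1, was likewise highest in WT tumour 3 at 13.3 CPM and did not pass (-1.42, adjusted p = 0.291, and -0.59 without that library).

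Of 17 transcripts of mature or tumour neutrophils 12 could be tested, of which 1 rose (Wfdc17) and 4 fell (Ptgs2, Slpi, Cxcl2 and Ifitm1) in KO tumours, with a median of -2.57. Over all genes tested 8.78% rose and 10.9% fell. Ptgs2 and Cxcl2 were also read in culture, so neither marks neutrophils alone. Ptgs2 had 98.6 and 84.4 CPM in KO cultures, against 107 and 92.0 CPM in WT cultures. Cxcl2 had 10.8 and 14.4 CPM in KO cultures, against 10.9 and 13.6 CPM in WT cultures. Ifitm1, an interferon-induced membrane protein, had 0.374 and 1.84 CPM in KO tumours, against 35.8, 72.8 and 71.1 CPM in WT tumours, and fell by 5.67 (adjusted p = 0.00312). Slpi, an inhibitor of neutrophil elastase, had 0 and 2 counts behind 0 and 0.123 CPM in KO tumours, against 0.579, 1.94 and 4.14 CPM in WT tumours (adjusted p = 0.0384). In culture Slpi had 0.282 and 0.165 CPM in KO, against 0.507 and 0.428 CPM in WT. Wfdc17, named because it was the single gene that rose, had 4.12 and 4.43 CPM in KO tumours, against 0.869, 1.06 and 2.35 CPM in WT tumours, and rose by 1.66 (adjusted p = 0.0490). Of 6 transcription factors of granulocyte development 5 could be tested, of which 3 fell in KO tumours (Cebpa, Cebpb and Cebpd), with a median of -1.08. Cultured cancer cells held all 3, so they do not mark granulocytes alone. Cebpa had 1.60 and 1.21 CPM in KO cultures, against 8.34 and 5.77 CPM in WT cultures, and passed as lower there (log2 fold change -2.29). Over the cultures Cebpb had 37.85 to 62.8 CPM and Cebpd 17.4 to 25.3 CPM. The factor of the specific granule stage, Cebpe, had at most 1 count in any library, and Spi1 did not pass (log2 fold change 0.56, adjusted p = 0.426).

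Among 8 ligands that attract or expand neutrophils, 6 could be tested, of which 1, Cxcl2, fell in KO tumours and 5 did not pass, with a median of -2.25. Over all genes tested 10.9% fell. Cxcl2 had 0.437 and 0.554 CPM in KO tumours, against 2.67, 4.65 and 22.5 CPM in WT tumours (log2 fold change -4.21, adjusted p = 0.0406). Cxcl5, another Cxcr2 ligand, had 19.8 and 35.0 CPM in KO tumours, against 40.7, 100 and 243 CPM in WT tumours, and did not pass (-2.14, adjusted p = 0.0787). Csf3, which encodes G-CSF, had 2.49 and 1.78 CPM in KO tumours, against 1.97, 2.24 and 8.95 CPM in WT tumours (-0.93, adjusted p = 0.402). Without WT tumour 3 the log2 fold change of Csf3 was 0.09 (adjusted p = 0.889), so its direction rested on that library. The summed level of the ligands was higher in every culture than in every tumour. The list summed to 30.8 and 48.96 CPM in KO tumours and 54.8, 125 and 320 CPM in WT tumours, and to 2078 and 2252 CPM in KO cultures and 1587 and 1816 CPM in WT cultures. WT tumour 3 had the most Cxcl2, Cxcl5 and Csf3 of the tumours, and also the most Cxcr2 and Csf3r. The same library was highest for the fibroblast and endothelial list, at 2651 CPM. A link between the ligands and the receptors was not tested.

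Without WT tumour 3 the counts of falling genes were 4 of 10 for the other granule products (Lcn2, Mmp9, Padi4 and Cd63), 1 of 8 for the other receptors (Clec4e), 3 of 9 for the mature or tumour neutrophil transcripts, 1 of 5 for the transcription factors (Cebpb) and 1 of 6 for the ligands (Cxcl2). The medians were then -1.34 for the granule products, -0.27 for the receptors, -0.87 for the mature or tumour transcripts, -0.94 for the transcription factors and -1.63 for the ligands. Fewer members of the receptor and mature or tumour lists then entered the test, at 8 and 9. These lists overlap in Cxcl2, and 10.2% of 15849 genes fell without that library.

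**Figure D4:**
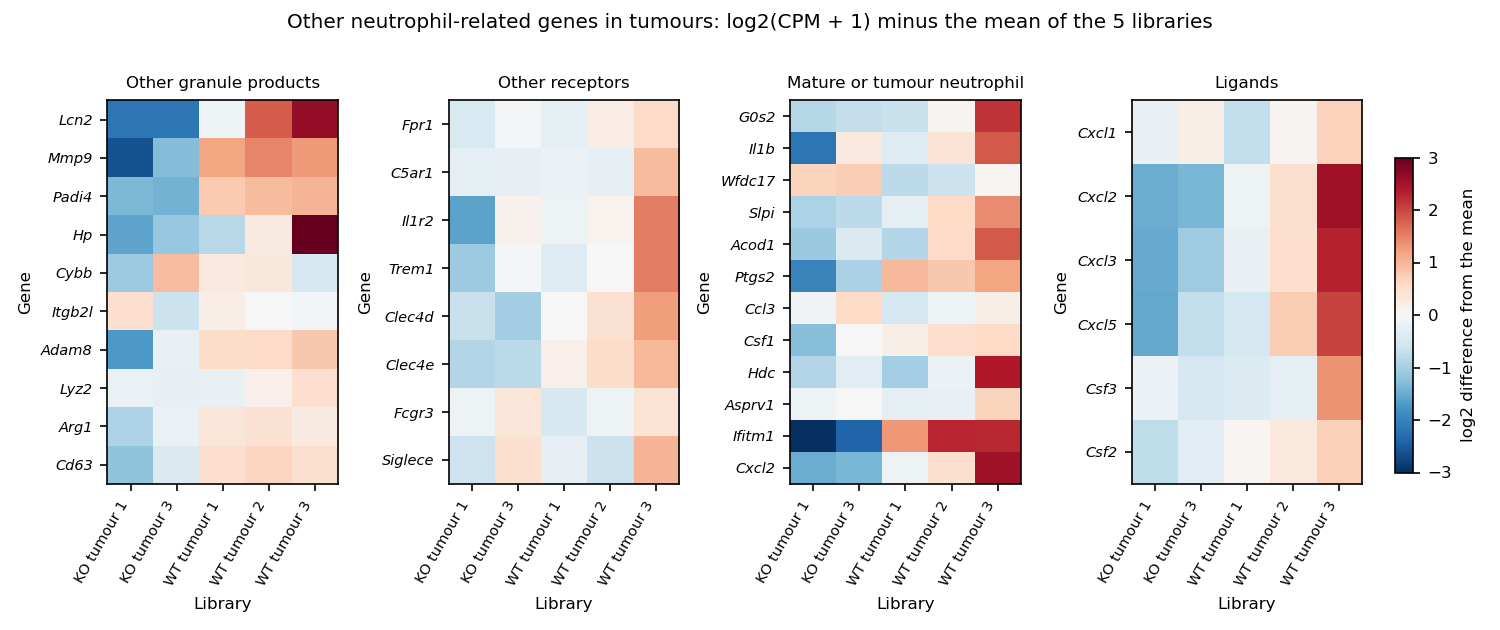
Difference of log2(CPM + 1) from the mean of the 5 tumours for other neutrophil-related genes, with KO tumours in the left columns and WT tumours in the right ones and colours that stop at -3 and 3. Padi4, Mmp9 and Ifitm1 are high in all 3 WT tumours, whereas Hp, G0s2, Hdc and Trem1 stand out in WT tumour 3.

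Outside these lists, the genes nearest in shape to the mean profile of the 5 tested genes over the 5 tumours were found by root mean square distance after scaling to the same SD. The 6 nearest were Prpf31, Smarca4, Snrpa1, Nox1, Nkrf and Heatr1, at distances of 0.0201 to 0.0965. Of these, 5 varied far less in level than the neutrophil genes, as Smarca4 (a chromatin remodelling ATPase) did with 195 and 202 CPM in KO tumours, against 200, 207 and 232 CPM in WT tumours. Nox1, an NADPH oxidase of epithelium, had a range like that of the neutrophil genes, with 0.312 and 0.80 CPM in KO tumours, against 0.695, 2.36 and 12.7 CPM in WT tumours. With 5 points a likeness of shape is a description.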

How the data were processed

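Raw counts per Ensembl gene, 1 deposited table per setting, were made by the authors from poly(A) libraries whose duplicates were removed by molecular identifiers (per the labels' protocols). Tools named in the submitters' processing notes were STAR 2.5.2b, fastp 0.23.1, Subread 1.5.2, featureCounts and DESeq2, with GRCm38 as the build; annotation and strand setting: not given in the sources used here. No exon of the 10 genes overlaps another gene in GENCODE M21. Deposited normalized and rlog tables were not used.

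Genes kept by filterByExpr (minimum count 10, minimum total 15) were scaled by TMM and tested with edgeR 4.0.16 (quasi-likelihood F test, R 4.3.3), adjusted by Benjamini-Hochberg over all genes tested, threshold 0.05. KO and WT were compared within each setting. Tumours against cultures, and the difference of the KO effects, came from a joint fit of all 9 libraries. The fit was run on simulated data in which every gene had the same spread beyond counting error. That run does not show how the test behaves for genes as low or as variable as these. Ratios of pooled counts carry exact binomial 95% intervals. Alternatives were RLE scaling, library totals, no filter, a CPM 1 filter, limma 3.58.1 (voom), DESeq2 1.42.0, 1 fit of all libraries, a replicate block and each library left out in turn. Leaving WT tumour 3 out of the list counts was chosen after seeing the data.

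The 10 genes and the lists were chosen with earlier results of these data known. Named are the 10 genes, up to 4 genes per list with the smallest p, and the ligands. Wfdc17, Arg1, Elane, Ms4a3, Mpo, Ctsg, Prtn3, Cebpe, Epx, Prg2, Flg, Sprr3, Hp, G0s2 and Hdc were named after their values were seen. A gene of the lists is not reported here by name. A KO tumour column bears the number 3, which no KO tumour label has, and was placed by its group.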

Additional observations from a re-analysis of the deposited data

Results flagged for a closer look

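Of the 10 genes and the neutrophil-related genes named by rule, 26 could be tested for a KO difference that itself differed between tumours and culture. Genes named after their values were seen, such as Wfdc17, Arg1, Hp, G0s2 and Hdc, are not among the 26. By edgeR's test of the difference over 16793 genes, of which 955 (5.69%) passed, 5 of the 26 passed. Each is given as the log2 difference in tumours minus that in culture. Lcn2 stood at -5.74 (adjusted p = 0.00831), as it fell in KO tumours and rose in KO cultures. Cxcl3, a Cxcr2 ligand, stood at -4.64 (adjusted p = 0.0201), with 1.06 and 1.78 CPM in KO tumours, against 4.0, 7.30 and 28.3 CPM in WT tumours, and 190 and 197 CPM in KO cultures, against 66.7 and 72.8 CPM in WT cultures. Ptgs2, the inducible cyclooxygenase, stood at -2.67 (adjusted p = 0.00378). Cebpb stood at -1.86 (adjusted p = 0.00708) and Cebpd at -1.87 (adjusted p = 0.0283), both lower in KO tumours without passing the test in culture. All 5 passed without WT tumour 3 as well, at adjusted p of 0.00180 for Cxcl3 to 0.0406 for Cebpd, beside 1030 of 16508 genes. S100a8, S100a9 and Ltf did not pass this test with the filter on low counts.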

How the results depend on the processing

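Ltf passed between KO and WT tumours under 13 of 13 alternatives (adjusted p 4.20e-16 to 0.0277) and in culture under 12 of 12. S100a8, S100a9, Csf3r and Cxcr2 passed in none of their 12 or 13 (lowest adjusted p 0.124, S100a8 with no filter). With WT tumour 3 left out the direction turned for S100a9, Csf3r and Cxcr2, and for S100a8 in the difference between settings. Over all libraries left out in turn, the log2 values ran from -2.33 to 0.38 for S100a9, from -1.71 to 0.66 for Csf3r, from -2.37 to 0.86 for Cxcr2 and from -2.26 to 0.28 for the S100a8 difference. In WT tumours over WT cultures, the calls of S100a8, S100a9 and Cxcr2 were lost with limma-voom (adjusted p 0.205, 0.0904 and 0.0576) and without either WT culture. In KO tumours over KO cultures, S100a9 and Cxcr2 passed with DESeq2 (adjusted p 0.0333 and 0.00932), with no filter, without WT tumour 3 (0.0131 and 0.00231) and without WT tumour 1 (0.0339 and 0.0271), and Cxcr2 also without WT tumour 2 (0.0357) and with library totals (0.0450). The cause was not tested.

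The genes called between KO and WT tumours numbered 3206 (1171 to 4143 with a library left out), in culture 3461 (2130 to 2985), in KO tumours over KO cultures 9950 (7224 to 10005), in WT tumours over WT cultures 11032 (8045 to 11864), and for the difference 955 (288 to 1651), 1875 with no filter and 1625 with DESeq2. With the replicate number as a block the counts were 1428 in tumours, 7587 in culture and 546 for the difference. The labels tie same-numbered libraries to no shared animal or batch, their deviations correlated at 0.231 in culture and at -0.004 and 0.039 in tumours, and the block changed no call of the 10 genes. Scaling CPM by TMM moved the summed level of the 10 genes to 5.00 in KO cultures, against 4.08, and to 64.8 in WT cultures, against 55.5, and the sum without Ltf in WT cultures to 0.676, against 0.575.

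With 2 or 3 tumours a group, the intervals of S100a8, S100a9, Csf3r and Cxcr2 reach from -5.07 (S100a8) to 1.47 (Csf3r) on the log2 scale. Counts of 12 or fewer per group for Ngp, Camp, Mmp8 and Ly6g showed no detectable difference beyond counting error once WT tumour 3 is left out. For genes other than the 10, WT tumour 3 was the single library left out.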
